A study of Mus musculus with 10 samples.

Results

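A set of 10 endothelial genes was described in the somatic cells of the fetal mouse ovary, with vitamin C withdrawn or supplied. They were the SOXF transcription factor genes Sox7, Sox17 and Sox18, the ETS factor gene Erg, the junction genes Cldn5 and Esam, and the vessel genes Egfl7, Robo4, Flt4 and Plvap. They were taken by name, and all 10 have a row among the 13578 genes of the deposited table. RNA was sequenced from gonadal cells sorted as Oct4-negative, one library per female embryo at embryonic day 13.5. Every embryo was Gulo-/- on a C57BL/6 background and so depended on the maternal diet for vitamin C, which mouse cells otherwise make with Gulo. In 5 embryos vitamin C had been withdrawn over the opening weeks of gestation and in 5 it had been supplied at a physiological level, and the comparison asks how the gonadal soma responds to withdrawal. Values are regularised log2 (rlog) values, log2 read counts made comparable between samples and shrunken most for weakly expressed genes. Differences are withdrawn minus supplied on that scale, ± marks the SD over n = 5 embryos, and the read depth behind the values is unknown.

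Blood vessels of the fetal gonad are lined by endothelial cells, which lie among the supporting, stromal and germ cells. In endothelial cells the SOXF factors and ERG bind the enhancers of many vessel genes, and in mouse the SOXF genes act partly in each other's place in arterial and lymphatic development. Claudin-5 seals tight junctions, ESAM is an adhesion molecule of the same contacts, and VE-cadherin (Cdh5) forms the adherens junction beside them. The cells here were not sorted for endothelium. Since each library is a mixture, fewer endothelial cells and less RNA per endothelial cell cannot be told apart.

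The 3 SOXF genes share the code of the HMG box, the domain through which SOX proteins bind DNA, and its letters are shown because like genes can share reads. Within the coding window in which they are most alike, Sox7 and Sox17 matched at 80.6% of positions, Sox17 and Sox18 at 81.4% and Sox7 and Sox18 at 76.4%. The most conserved 60 bases of that window follow, from GENCODE M21 transcripts, 5′ to 3′ on the coding strand, with capitals where all 3 genes have the same base:
Sox7: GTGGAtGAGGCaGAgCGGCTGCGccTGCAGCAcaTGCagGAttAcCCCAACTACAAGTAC
Sox17: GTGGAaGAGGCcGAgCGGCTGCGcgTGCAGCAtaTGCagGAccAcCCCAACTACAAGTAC
Sox18: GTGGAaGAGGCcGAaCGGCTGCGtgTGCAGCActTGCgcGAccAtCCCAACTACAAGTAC
Between protein-coding transcripts of these genes, compared on the coding strand, the longest shared run of bases was 29 for Sox17 and Sox18. It was 22 for Sox7 and Sox17 and 20 for Sox7 and Sox18. A read of these transcripts that spans more than such a run therefore holds at least 1 base that tells them apart.

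The SOXF genes lay low in the table and their withdrawn and supplied values overlapped. Sox7 was at 7.53, 7.50, 7.57, 7.71 and 7.47 in withdrawn embryos 1 to 5, against 7.80, 7.55, 7.49, 7.59 and 7.65 in supplied embryos 1 to 5. The highest value was that of supplied embryo 1 and the lowest that of withdrawn embryo 5. Sox17, which marks arterial endothelium, was at 6.67, 6.84, 6.75, 6.70 and 6.98 in withdrawn embryos, against 6.86, 6.68, 6.67, 6.85 and 6.83 in supplied embryos. Here withdrawn embryo 5 was highest, and supplied embryos 2 and 3 and withdrawn embryo 1 were lowest. Sox18, a factor upstream of the lymphatic regulator Prox1, was at 7.15, 7.04, 7.06, 7.31 and 7.15 in withdrawn embryos, against 7.13, 7.17, 7.08, 7.21 and 7.27 in supplied embryos. Withdrawn embryo 4 was highest for Sox18 and, among withdrawn embryos, for Sox7, but not for Sox17.

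None of the 3 SOXF genes passed the test. Sox7 averaged 7.56 ± 0.0922 in withdrawn and 7.62 ± 0.119 in supplied embryos, a difference of -0.059 (95% interval -0.18 to 0.063, adjusted p = 0.991 by limma). Sox17 differed by 0.011 (interval -0.11 to 0.13) and Sox18 by -0.033 (interval -0.14 to 0.076). Sox7 was at -0.013 without supplied embryo 1, and Sox18 ranged from -0.0747 to -0.0075 when each embryo was left out in turn. On a linear scale the intervals ran from 0.881-fold for Sox7 to 1.10-fold for Sox17. Rlog shrinkage makes differences of low genes smaller, so these folds may understate those of the RNA.

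Erg, whose product keeps endothelial junctions closed and drives Cdh5 in endothelial cells, was steadier among withdrawn embryos than among supplied ones. It was at 6.63, 6.68, 6.71, 6.68 and 6.73 in withdrawn embryos, against 6.79, 6.70, 6.55, 6.81 and 6.65 in supplied embryos. All 5 withdrawn values lay inside the supplied range. The means were 6.69 ± 0.0391 and 6.70 ± 0.106 in withdrawn and supplied embryos, a difference of -0.013 (interval -0.11 to 0.084, adjusted p = 0.998 by limma). Whether the spread differed between groups was not tested.

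Of the junction genes, Cldn5 had the smallest p of the 10 genes and did not pass. It was at 6.75, 6.71, 6.87, 6.84 and 6.89 in withdrawn embryos, against 6.97, 6.89, 6.87, 6.97 and 6.79 in supplied embryos. Withdrawn embryos 1 and 2 lay below every supplied embryo and supplied embryos 1 and 4 well above every withdrawn one. Supplied embryo 2 was level with the highest withdrawn embryo to the second decimal, and supplied embryos 3 and 5 lay within the withdrawn range. Cldn5 averaged 6.81 ± 0.0774 in withdrawn and 6.90 ± 0.0751 in supplied embryos, a difference of -0.086 (SE 0.0452, interval -0.18 to 0.0099, adjusted p = 0.956 by limma). Esam was at 7.51, 7.58, 7.56, 7.59 and 7.46 in withdrawn embryos, against 7.46, 7.48, 7.49, 7.64 and 7.56 in supplied embryos. Supplied embryo 4 was highest, and Esam differed by 0.015 with an interval from -0.080 to 0.11.

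Plvap, which builds the diaphragms of fenestrated endothelium, had the largest difference of the 10 genes over all embryos and did not pass. It was at 8.90, 9.0, 9.09, 9.24 and 9.27 in withdrawn embryos, against 9.40, 9.23, 9.21, 9.21 and 9.02 in supplied embryos. Withdrawn embryos 1 and 2 were the lowest and supplied embryo 1 the highest. The means were 9.1 ± 0.159 and 9.22 ± 0.137 in withdrawn and supplied embryos, a difference of -0.12 (SE 0.0750, interval -0.28 to 0.040, adjusted p = 0.963 by limma). The size of the difference, and its rank, turned on single libraries. Without withdrawn embryo 1 Plvap differed by -0.067 (adjusted p = 0.916 by limma), no more than Cldn5 at -0.070, and without supplied embryo 1 by -0.071 (adjusted p = 0.997 by limma). Both genes moved to an unadjusted limma p under 0.05 when either of 2 other libraries was left out. Without withdrawn embryo 5 Cldn5 differed by -0.10 (adjusted p = 0.853 by limma) and Plvap by -0.16 (adjusted p = 0.859). Without supplied embryo 5 Cldn5 differed by -0.11 (adjusted p = 0.802 by limma) and Plvap by -0.17 (adjusted p = 0.842).

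Egfl7, Robo4 and Flt4 gave differences near 0. Egfl7, which codes for a secreted vessel matrix protein, was at 8.70, 8.82, 8.82, 8.85 and 8.82 in withdrawn embryos, against 8.75, 8.63, 8.73, 8.89 and 8.90 in supplied embryos. Withdrawn embryos 2 to 5 fell within a narrow band with withdrawn embryo 1 below it, while the supplied embryos spread more widely, and the difference was 0.023 (interval -0.093 to 0.14). Robo4, the endothelial member of the roundabout receptor family, was at 7.89, 8.09, 8.09, 8.05 and 8.14 in withdrawn embryos, against 8.07, 7.83, 8.0, 8.23 and 8.15 in supplied embryos. The lowest values were again those of supplied embryo 2 and withdrawn embryo 1, and the difference was -0.0033 (interval -0.14 to 0.14). Flt4, the receptor VEGFR3 for VEGF-C and VEGF-D, was at 8.41, 8.61, 8.64, 8.58 and 8.66 in withdrawn embryos, against 8.57, 8.58, 8.40, 8.65 and 8.62 in supplied embryos. Withdrawn embryo 1 and supplied embryo 3 stood below the rest, and the difference was 0.015 (interval -0.11 to 0.14).

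**Figure D1:**
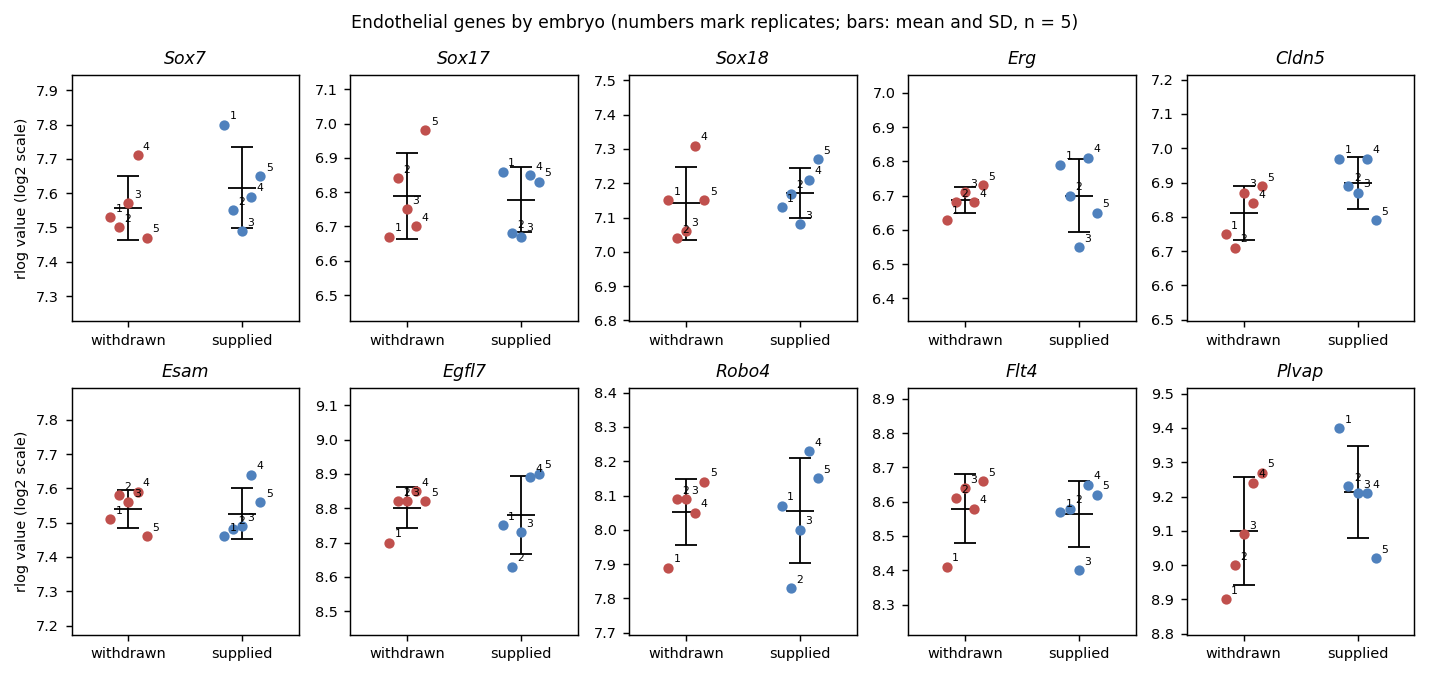
The rlog value (log2 scale) of each of the 10 genes in every embryo, with withdrawn embryos left and supplied embryos right, numbered by replicate, and with bars for the mean and SD (n = 5). Every panel spans the same range of log2 units, and the groups overlap in all 10 genes.

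Over all 13578 genes, 6813 were higher and 6765 lower in withdrawn embryos, with a median difference of 0.00021. Of the 10 genes, 4 were higher and 6 lower, with a median difference of -0.0080. This split depended on the processing, with 5 higher and 5 lower after quantile normalization or with sample weights, 6 higher and 4 lower with the mean of the endothelial comparison genes as a covariate, 7 higher and 3 lower without the 3 libraries of highest Fos, and 0 higher and 10 lower with embryos of like title number averaged. By limma, 0 of the 10 passed an adjusted p of 0.05, where 0.0221% of all genes did (3 genes), and 0 had an unadjusted p under 0.05, where 5.3% did (719 genes; 2.45% higher and 2.84% lower in withdrawn embryos). The groups overlapped in all 10, and did not in 0.81% of all genes. No interval reached farther from 0 than 0.28, the lower end for Plvap. On the rlog scale, which makes differences of low genes smaller, the intervals of the 10 genes together spanned 0.826-fold to 1.10-fold. The titles give embryos 2 and 3 the same leading number within a group, and what that number stands for is not stated.

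**Figure D2:**
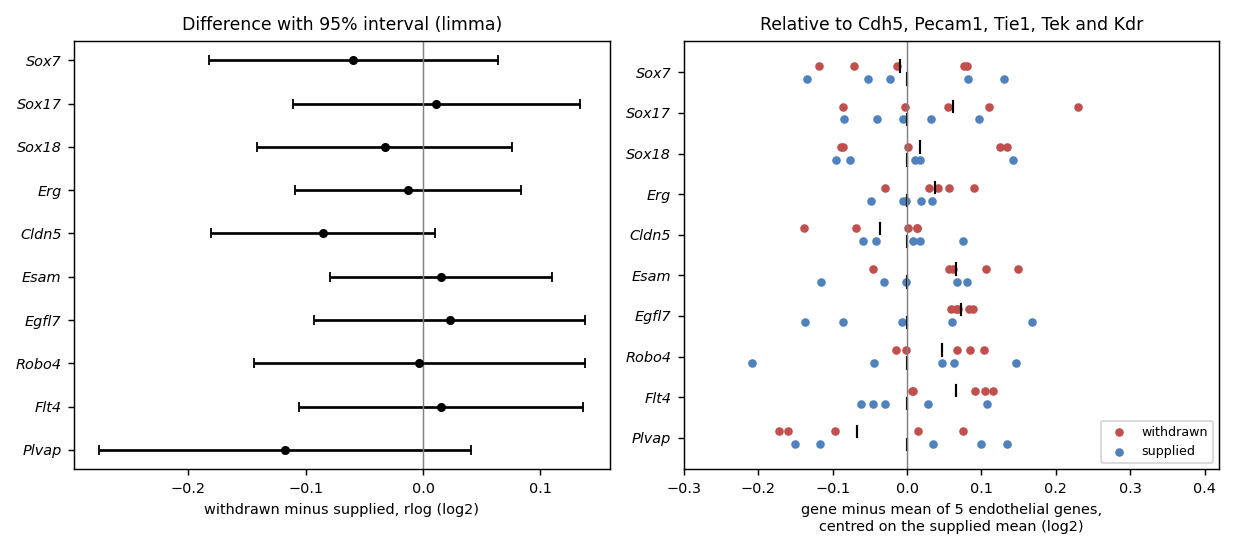
Left, the difference of each gene, withdrawn minus supplied (rlog, log2), with its 95% interval by limma; every interval includes 0. Right, each gene minus the mean of Cdh5, Pecam1, Tie1, Tek and Kdr in the same embryo, set to 0 at the supplied mean, with a point per embryo (withdrawn above, supplied below) and a black line at each group mean.

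To compare the 10 genes with other endothelial genes of the same library, the mean of Cdh5, Pecam1, Tie1, Tek and Kdr was subtracted in each embryo. These 5 genes mark endothelium, and their values show that its RNA was present in every library: Cdh5 was between 10.62 and 10.94 and Kdr, the main VEGF receptor, between 11.54 and 11.80. All 5 were lower in withdrawn embryos, as were 6765 of all 13578 genes. The 5 genes were lower by 0.023 (Kdr) to 0.069 (Cdh5), with 0 of 5 at an unadjusted limma p under 0.05. Relative to them, 7 of the 10 genes were higher and 3 lower in withdrawn embryos, with Sox7, at -0.0092, turning to 0.0041 against Cdh5 and Pecam1 alone. Egfl7 differed most, at -0.94 ± 0.0125 in withdrawn and -1.01 ± 0.120 in supplied embryos, a difference of 0.073 (exact permutation p = 0.254, two-sided). The smallest p was that of Flt4 (difference 0.065, exact permutation p = 0.143), and Plvap differed by -0.068 and Cldn5 by -0.035. After Benjamini-Hochberg adjustment over the 10 genes, 0 passed and the smallest adjusted p was 0.510, by an exact permutation test whose smallest possible p is 0.00794.

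Per length of annotated exons, Plvap was the most abundant of the 10 genes and Sox17 the least. Each rlog level was divided by the exon length of the gene in GENCODE M21, that is, log2 of the length in kilobases was subtracted. That length merges the exons of all annotated transcripts of a gene, and which transcripts were expressed was not measured. On this log2 level per kilobase Plvap stood at 8.17 over the 10 embryos and Egfl7 at 6.95, followed by Sox18 (6.46), Cldn5 (6.35), Esam (6.01), Sox7 (5.86), Robo4 (5.65), Flt4 (5.53), Erg (4.90) and Sox17 (4.53). The smallest gaps were those between Sox18 and Cldn5 (0.108) and between Robo4 and Flt4 (0.120). They were about the SD of one gene over the 10 embryos (0.0880 for Sox18 and 0.120 for Robo4). This SD does not hold the error of the exon lengths, so the order of genes at close levels is not settled, in these 2 pairs or in others. The build that the exon lengths come from is not that of the counts, and the order is a description. Before division by length, Plvap was above 50.6% of all genes and Erg above 16.2%.

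In some embryos most of the 10 genes lay on the same side of their group mean. In 9 of the 10 genes, all except Cldn5, the difference between groups was smaller than the SD within either group. In withdrawn embryo 1, 9 of the 10 genes lay below their group mean, all except Sox18, and in supplied embryo 3 all 10 did. In supplied embryo 4, 8 of the 10 genes lay above their group mean, all except Sox7 and Plvap. The shares of all genes on these sides were not counted.

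**Figure D3:**
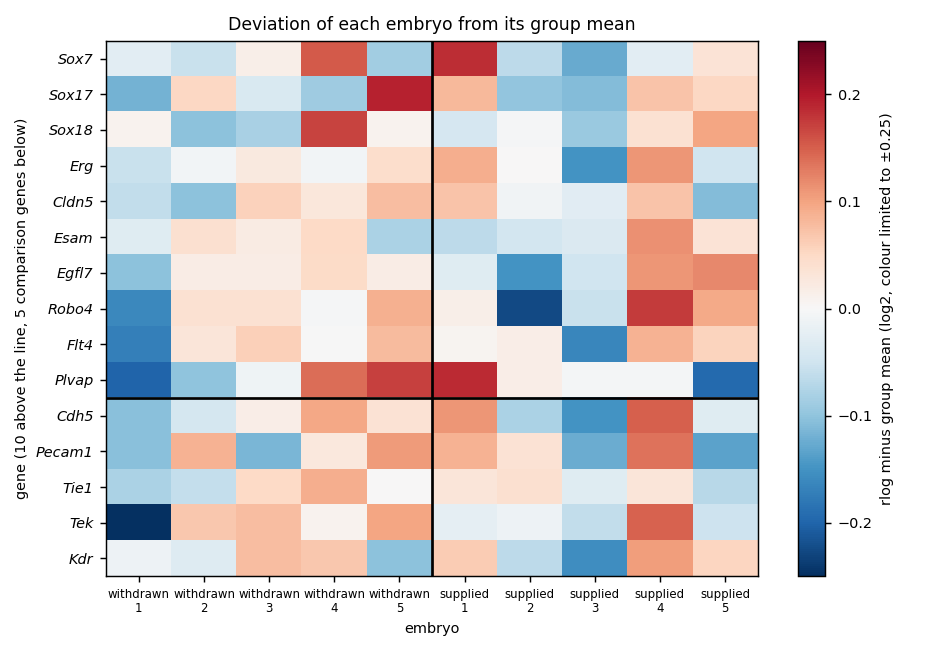
Deviation of every embryo from the mean of its own group (rlog, log2), for the 10 genes above the horizontal line and 5 comparison genes below it, withdrawn embryos left of the vertical line and supplied embryos right. Withdrawn embryo 1 and supplied embryo 3 are mostly blue (below the group mean) and supplied embryo 4 mostly red (above it).

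Egfl7 and Robo4 were the pair most alike. With each gene centred on its group means their Pearson r over the 10 embryos was 0.935 (exact permutation p = 0.00549 within groups; Spearman rho 0.855, exact permutation p = 0.0135). Without the 2 embryos in which Egfl7 was farthest from its median, r was 0.810. Cldn5 and Plvap followed (r = 0.812, exact permutation p = 0.0149; rho 0.770, exact permutation p = 0.0183; r = 0.729 without 2 embryos), then Erg and Flt4 (r = 0.746, exact permutation p = 0.00993; rho 0.709, exact permutation p = 0.0304; r = 0.445 without 2 embryos). Over all 45 pairs r was above 0 in 40, with a median of 0.316. Pairs of other genes were not counted in this way, so these values do not set the 10 genes apart. By exact permutation 7 pairs had an unadjusted p under 0.05 and 0 passed after adjustment over the 45 pairs (smallest adjusted p 0.208). Both genes of a pair come from the same libraries, so anything that moves a whole library moves both.

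**Figure D4:**
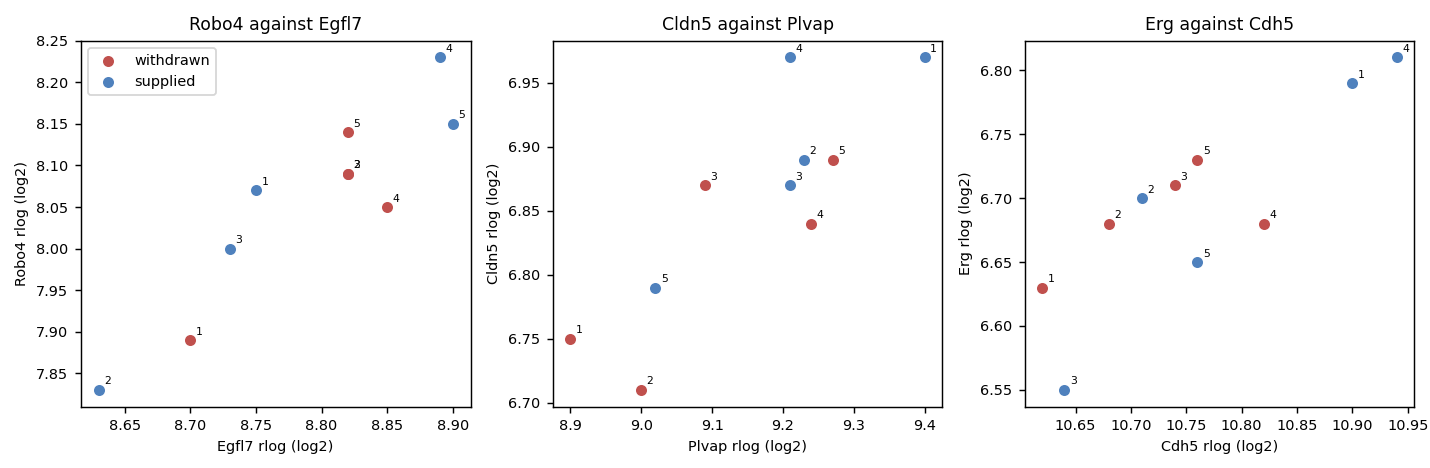
Rlog values (log2) of Robo4 against Egfl7, Cldn5 against Plvap and Erg against Cdh5, with a point per embryo numbered by replicate, withdrawn in red and supplied in blue. Supplied embryo 2 is lowest and supplied embryo 4 highest in Robo4, and supplied embryos 1 and 4 are highest in Erg and in Cdh5.

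Against Cdh5, which was not among the 10 genes, Erg had the closest relation. Erg and Cdh5 correlated at r = 0.834 over the 10 embryos (permutation p = 0.00266, adjusted over the 10 genes 0.0266; rho 0.697, permutation p = 0.0299, adjusted 0.0960), and 0.125% of all genes reached that r with Cdh5. Without supplied embryos 1 and 4, the 2 farthest from the median of Cdh5, r was 0.597 (permutation p = 0.113), so the call rests on those embryos, whose removal also narrows the range of Cdh5 and leaves 8 embryos. The adjusted permutation p of Erg was also above 0.05 without supplied embryo 1 (r = 0.791, adjusted p = 0.104), supplied embryo 4 (r = 0.758, adjusted p = 0.0965) or withdrawn embryo 1 (r = 0.823, adjusted p = 0.0561) alone. With both genes centred on their group means r was 0.859 (exact permutation p = 0.00854, adjusted 0.0854). The other 9 genes had r between 0.329 (Esam) and 0.736 (Cldn5), and 0 of these passed after adjustment by permutation (adjusted p of Cldn5 0.0752). Cldn5 passed without supplied embryo 3 (r = 0.822, permutation, adjusted p = 0.0351) and Sox7 without supplied embryo 4 (r = 0.849, permutation, adjusted p = 0.0329). With Pecam1, the adhesion molecule CD31, in place of Cdh5, Erg had r = 0.751 (permutation, adjusted p = 0.101) and 0 genes passed.

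The genes most like each member in their deviations over the 10 embryos were mostly not vessel genes, and with so few embryos a high r is common among that many genes. For Erg they began with Aplnr (r = 0.911), the apelin receptor of venous endothelium, and Cd34 (r = 0.909), a surface protein of endothelial and blood stem cells. Robo4 stood at rank 9 of the genes most like Egfl7, and Egfl7 at rank 9 of those most like Robo4, and both lists held Kntc1 (r = 0.969 with Egfl7 and 0.950 with Robo4), a gene of the mitotic checkpoint. Esam had Mon2 (r = 0.951) and the endothelial growth factor gene Vegfa (r = 0.950) first. The first genes were Klf15 for Flt4 (r = 0.972), Tor3a for Sox17 (r = 0.955), Mphosph9 for Sox18 (r = 0.942), Gm16516 for Sox7 (r = 0.942), Pdzd11 for Cldn5 (r = 0.921) and Ubn1 for Plvap (r = 0.913). Among the genes most like Cldn5, Plvap was at rank 22, and among those most like Plvap, Cldn5 was at rank 26.

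Promoter sequences from RefSeq (GRCm38.p6) were matched for 5 of the 10 genes, Erg, Cldn5, Egfl7, Robo4 and Flt4, with 9 starts in all. The 250 bases before each start were searched on both strands for GGAA, the core that ETS factors such as ERG bind, for AGGAAG and CCGGAA, which contain it, for the SOX motif AACAAT and for AACAGGAA, in which a FOX and an ETS site overlap. The stretches of Egfl7 and Robo4 that hold these cores closest to the start are shown because these 2 genes varied most alike, and 1 of Erg because it is itself an ETS gene. They read 5′ to 3′ on the strand of the gene, with GGAA or its reverse TTCC in capitals:
Egfl7, chr2:26580989-26581044, plus strand: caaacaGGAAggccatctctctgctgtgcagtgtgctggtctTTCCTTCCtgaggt
Robo4, chr9:37401924-37401953, plus strand: GGAAgcatccgtTTCCtcaaagctgcTTCC
Erg, chr16:95459355-95459393, minus strand: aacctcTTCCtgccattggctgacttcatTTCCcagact
The first Egfl7 window held GGAA 5 times, AGGAAG 3 times and AACAGGAA once, a motif found in 2.2% of all 32851 promoters, of which 18.0% held GGAA at least 5 times. The other 2 Egfl7 windows held GGAA 3 times and 1 time and no AACAGGAA. Robo4 held GGAA 3 times, as many as the median promoter, and AGGAAG once (29.5% of promoters), while Flt4 held GGAA 2 times. GGAA itself is in 93.4% of promoters. It was not in the Cldn5 window or in 1 of the 3 Erg windows, and AACAAT (9.4% of promoters) was in 1 Erg window. The Erg window of the stretch shown held GGAA 2 times, and another Erg window, not shown, held it 4 times. CCGGAA (12% of promoters) was in none of the 9. These matches describe letters only. The Robo4 stretch lies within an exon of a longer annotated transcript. All 250 bases of the Flt4 window also lie within an annotated exon of Flt4.

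Neighbouring genes did not pass the test either. Esam and Robo4 lie 112963 bases apart on chromosome 9, each the nearest measured protein-coding gene to the other on that side. Their differences between groups were 0.015 and -0.0033. Agpat2 overlaps Egfl7 on the opposite strand (difference 0.041, limma adjusted p = 0.983) and Gtpbp3 overlaps Plvap on the opposite strand (difference -0.056, limma adjusted p = 0.978). The labels do not say how the counting treated strand, so reads of Egfl7 and Plvap cannot be told apart from those of these partners where they overlap. The microRNA gene Mir126a lies inside Egfl7 on the same strand and has no row of its own. Gm20532, annotated as protein-coding, also overlaps Egfl7 on the same strand and has no row, so strand would not separate its reads. Ets2, the nearest measured protein-coding gene to Erg and another ETS gene, differed by 0.020, and Cdc45, 2185 bases from Cldn5, by 0.012.

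Among the transcription factors around SOXF and ERG, 0 genes passed over all genes. In a list of 20 endothelial factors, 19 had a row, 11 were higher and 8 lower in withdrawn embryos, and the median difference was 0.012. Epas1, a hypoxia factor of endothelium, was at 10.18 ± 0.0897 in withdrawn and 10.5 ± 0.369 in supplied embryos (difference -0.32, adjusted p = 0.922 by limma). Foxo1, a restraint on vessel growth, differed by 0.092 (adjusted p = 0.931 by limma), and these 2 genes alone of the list had an unadjusted p under 0.05. Epas1 was at -0.17 without supplied embryo 2, and its unadjusted p was above 0.05 with robust variance estimation or without withdrawn embryo 1. Fli1, the ETS gene closest to Erg, differed by 0.075. Of 25 other ETS genes 18 had a row, with 0 at an unadjusted limma p under 0.05, a median difference of 0.019 and the smallest p for Ets1 (difference 0.082, adjusted p = 0.961 by limma). Of 16 other SOX genes 9 had a row, with a median difference of -0.038 and 0 at an unadjusted limma p under 0.05, the smallest being that of Sox30 (difference -0.043, adjusted p = 0.931 by limma).

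The junction list held 24 genes, all with a row, of which 13 were higher and 11 lower, with a median difference of 0.0095 and 0 at an unadjusted limma p under 0.05. The smallest p was that of Ctnnd1 (difference 0.090, adjusted p = 0.931 by limma), the catenin that stabilises cadherins. Of 22 other claudins 11 had a row, with a median difference of -0.032. Cldn12 alone had an unadjusted p under 0.05, at 8.39 ± 0.0661 in withdrawn and 8.50 ± 0.0628 in supplied embryos (difference -0.11, adjusted p = 0.928 by limma).

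Around Plvap, 2 genes of the caveola, the membrane pit whose proteins coat endothelial and other cells, had an unadjusted limma p under 0.05 and did not pass after adjustment. Prkcdbp (cavin 3) was at 8.70 ± 0.0668 in withdrawn and 8.94 ± 0.103 in supplied embryos, a difference of -0.24 (SE 0.0536, adjusted p = 0.280 by limma). Sdpr (cavin 2) was at 7.74 ± 0.0520 in withdrawn and 7.95 ± 0.120 in supplied embryos, a difference of -0.21 (SE 0.0542, adjusted p = 0.594 by limma), and its groups did not overlap. These were 2 of 7 genes, where 5.3% of all genes had such a p, and 1 of 7 without overlap, where 0.81% of all genes had none. The other 5 genes of the list had a limma p above 0.05. Ptrf (cavin 1) differed by 0.068 and Cav1 by 0.074, so the list of 7 genes had 4 higher and 3 lower and a median of 0.010.

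Among the ligands and partners of Flt4 and Robo4, Nrp2, a co-receptor of Flt4, was at 9.94 ± 0.104 in withdrawn and 10.14 ± 0.214 in supplied embryos (difference -0.20, adjusted p = 0.928 by limma). Adamts3, the protease that activates VEGF-C, differed by 0.12 (adjusted p = 0.928 by limma), while Vegfc itself differed by -0.067, Figf (VEGF-D) by 0.089 and the lymphatic genes Prox1 and Lyve1 by -0.095 and 0.11. All 8 genes of this list had a row, 5 were higher and 3 lower, with a median of 0.044. In the list of SLIT ligands and roundabout receptors, 9 of 10 genes had a row and 6 were higher. Slit2 was at 12.79 ± 0.0561 in withdrawn and 12.67 ± 0.0907 in supplied embryos (difference 0.12, adjusted p = 0.928 by limma), and Robo1 and Robo2 differed by 0.030 and -0.052. Arterial genes (9 of 10 with a row, median -0.0047) had 0 at an unadjusted limma p under 0.05, with Dll4 first (difference -0.075, adjusted p = 0.960 by limma). Venous genes (5 with a row, median 0.026) held Nrp2 again, beside Ephb4 at 0.076 and Emcn at -0.029.

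**Figure D5:**
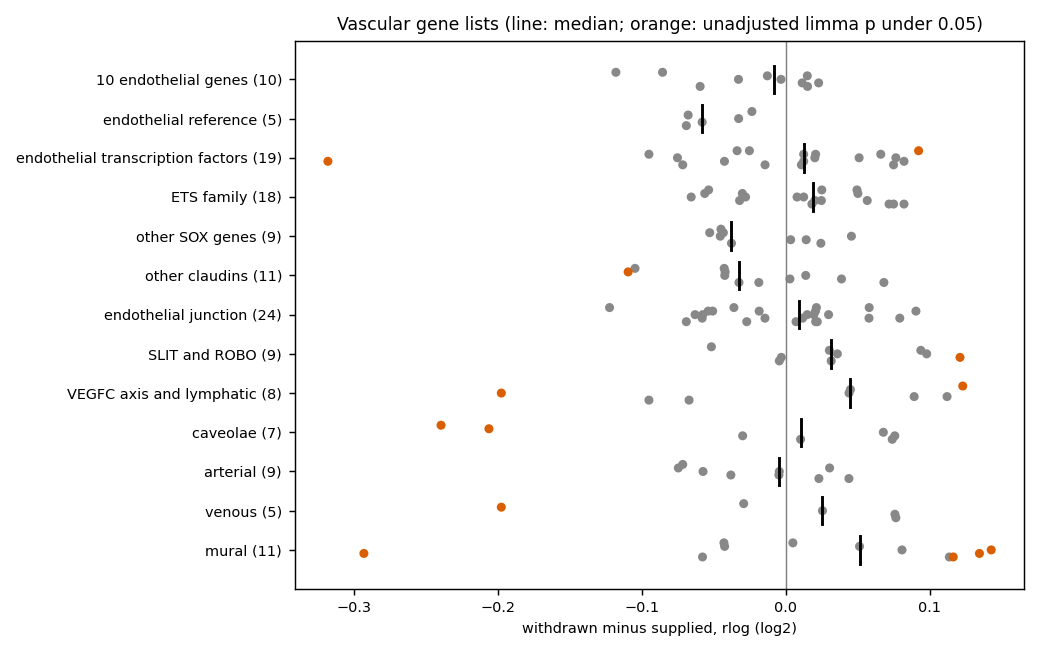
Difference of each gene, withdrawn minus supplied (rlog, log2), in the 10 endothelial genes and 12 vascular lists, with the number of genes that have a row; a black line marks each median and orange marks an unadjusted limma p under 0.05. The medians lie between -0.058 (the 5 comparison genes) and 0.051 (mural genes), and 0 of the genes shown passed an adjusted p of 0.05.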

How the data were processed

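Sorted Oct4-negative gonadal somatic cells of single embryos gave 2 ng of total RNA per low-input library, per the labels' protocols. The authors deposited gene-level rlog values on a log2 scale. The submitters' processing notes name DESeq2 1.20.1, TopHat2 2.1.1, build mm9 and Trim Galore 0.4.0. No counting program and no use of strand is named there, and rlog values hold no depth, so no count model was used and no counting interval is given.

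All 13578 genes were fitted with limma 3.58.1 in R 4.3.3 (variance trend, no covariate, mean minimum of 3, which removed 0 genes), withdrawn (n = 5) against supplied (n = 5), with Benjamini-Hochberg adjustment over all genes at 0.05; the fit was tested on simulated data. Differences relative to 5 endothelial genes were tested by exact permutation and correlations with Cdh5 by permutation with 100000 resamples (NumPy 2.4.6), two-sided. Whether embryos of a group came from separate litters is not stated, and p-values measure only the spread between libraries, which may be partly technical.

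The 10 genes, the 22 other lists, the tests and the naming rule (all 10 genes, listed genes at an unadjusted p under 0.05 or otherwise of smallest p, the 5 genes most like each member, neighbours) were chosen with earlier results of these data known. Fli1, Robo1, Robo2, Vegfc, Figf, Prox1, Lyve1, Ptrf, Cav1, Ephb4, Emcn, Krt19, Lrrn4, Csf1r, Cx3cr1 and Mrc1 were named outside that rule after their values were seen. Of the genes most like each member and the neighbours the text names only some. Alternatives were other filters, variance models, scalings, weights, blocks, covariates and samples left out. GENCODE M21 and RefSeq (GRCm38) served for names, lengths, neighbours and sequences and are another build than that of the table.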

Additional observations from a re-analysis of the deposited data

Results flagged for a closer look

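Egfl7 in withdrawn embryo 1, at 8.7009, lay apart from the other withdrawn embryos, of which the next was at 8.8155. This gap was 0.788 of the range of the withdrawn embryos, above the 95% critical value of 0.71 for groups of 5. It was 1 flag among 40 groups of values examined (10 genes, with and without subtraction of the 5 endothelial genes, in each condition), and chance flags about 1 in 20. Without this embryo Egfl7 differed by 0.048. The other endothelial genes of that library were also mostly below their group mean. Their part in the low Egfl7 value was not tested.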

How the results depend on the processing

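In all 23 alternatives 0 of the 10 genes passed an adjusted limma p of 0.05 (smallest adjusted p 0.796, Cldn5 with sample weights). At an unadjusted p, 0 to 2 of them passed without 1 embryo. Of all genes 3 passed, 1 without the variance trend, after quantile normalization or with same-numbered titles averaged, 5 with robust variance or sample weights, 11 with Fos (log2 range 9.81 to 12.58 over the libraries) as a covariate, and 0 to 4 without 1 embryo. Sox7, Cldn5 and Plvap stayed lower in withdrawn embryos in every one (Sox7 from -0.097 to -0.0134, Cldn5 from -0.1121 to -0.0511, Plvap from -0.1677 to -0.0589), and the other 7 genes changed sign in at least 1. With same-numbered titles averaged, Sox17 was at -0.016, Esam at -0.0030, Egfl7 at -0.0057, Flt4 at -0.016 and Dusp1 at -0.043. Without the 3 libraries of highest Fos, Sox18 was at 0.038, Erg at 0.0080 and Robo4 at 0.0145. With the mean of the endothelial comparison genes as covariate Erg was at 0.034 and Robo4 at 0.047, and Robo4 was at 0.0043 after quantile normalization and 0.010 with sample weights. Relative to the endothelial genes, Sox7 was at 0.0041 (Cdh5 and Pecam1 alone), 0.024 (with Emcn, Flt1 and Eng) and 0.010 (medians), and Sox18 at -0.011 (medians). The cause was not tested.

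Without 1 embryo at a time, differences ranged from -0.0374 to 0.0405 (Sox17), -0.0747 to -0.0075 (Sox18), -0.0509 to 0.0144 (Erg), -0.00039 to 0.0436 (Esam), -0.0152 to 0.053 (Egfl7), -0.0593 to 0.041 (Robo4), -0.0266 to 0.0568 (Flt4) and -0.0441 to 0.3035 (Dusp1). Relative to the endothelial genes they ranged from -0.043 to 0.0233 (Sox7), -0.0119 to 0.0529 (Sox18) and -0.0051 to 0.0832 (Robo4), and r of Esam with Cdh5 from -0.0669 to 0.6394. Of the 10 genes 1 (Erg) passed against Cdh5, 0 to 2 without 1 embryo, and 0 with Pecam1 in its place, centred, without the 2 farthest embryos or, chosen after seeing the data as were the single embryos left out here, without the 3 libraries of highest Fos.

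No pairing of the samples by the bracketed replicate numbers was seen (correlations of deviations from -0.364 to 0.172, 1 of 10 embryos closest to its own number). So few libraries cannot show that none existed. With the bracketed numbers as a replicate block 2 of all genes and 0 of the 10 passed. Depth is unknown, and rlog shrinkage makes differences of low genes smaller.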

Other observations

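Lists of genes that mark other cells of the gonad and its surroundings were read beside the endothelial genes. Of 11 mural genes, which mark the cells that wrap vessels, 7 were higher and 4 lower in withdrawn embryos (median 0.051). Notch3 differed by 0.13, Des by 0.12, Cspg4 by 0.14 and Rgs5 by -0.29, each at an unadjusted limma p under 0.05 and none past adjustment (smallest adjusted p = 0.900 by limma). Over all genes 5.3% had such an unadjusted p, and no list was tested as a set. The summed mural level, on the log2 scale, ranged from 13.87 to 14.07 in withdrawn and from 13.78 to 13.99 in supplied embryos. Of 10 stromal genes 9 were higher in withdrawn embryos (median 0.086), where 6813 of all 13578 genes were higher. The matrix genes Dcn, at 0.24, and Col3a1, at 0.19, and the receptor gene Pdgfra, at 0.15, had an unadjusted limma p under 0.05 (smallest adjusted p = 0.879). These were 3 of 10 genes, where 5.3% of all genes had such a p. The summed stromal level ranged from 17.56 to 17.75 in withdrawn and from 17.35 to 17.60 in supplied embryos.

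Of 12 macrophage genes 7 were lower and 5 higher (median -0.016). Itgam, at -0.22 (adjusted p = 0.865 by limma), and Lyz2, at -0.30, alone had an unadjusted limma p under 0.05, as did 5.3% of all genes. Csf1r differed by -0.022, Cx3cr1 by 0.064 and Mrc1 by 0.10. Mesonephric genes had 8 of 10 lower (median -0.074), with the keratin gene Krt8 at -0.14, where 6765 of all 13578 genes were lower. Of 5 mesothelial genes with a row 3 were lower and 2 higher (median -0.091). The keratin genes Krt7, at -0.23 (adjusted p = 0.239 by limma), and Krt14, at -0.091, did not overlap between groups. These were 2 of 5 genes, where 0.81% of all genes did not overlap. Krt19, at 0.076, and Lrrn4, at 0.043, were the higher ones. The neural list held the lowest difference of all genes, that of Chgb, a secretory granule gene, which was at 6.94 ± 0.120 in withdrawn and 9.04 ± 2.48 in supplied embryos (difference -2.1, adjusted p = 0.900 by limma). It was at -1.26 without supplied embryo 2. The germ cell gene Tdrd1 was at 5.77 ± 0.0456 in withdrawn and 5.96 ± 0.0930 in supplied embryos (difference -0.20, adjusted p = 0.167 by limma), and it passed with Fos as a covariate (adjusted p = 0.0491) or without supplied embryo 3 (adjusted p = 0.0162). Irx5, a pregranulosa gene, differed by 0.15, and the smallest p of 3 lists without a gene under 0.05 were those of Hemgn (-0.082), Pf4 (0.093) and Dusp1 (0.11). The other lists had medians of -0.032 (erythroid), 0.053 (megakaryocyte, 2 of 10 genes with a row), -0.097 (germ cell, 5 of 10), -0.020 (pregranulosa), -0.20 (neural) and 0.057 (immediate early), with 0 genes past adjustment by limma. The part of these cells in the values of the 10 endothelial genes was not tested.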
